A study of Mus musculus with 12 samples.

Results

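Collagens and small leucine-rich proteoglycans are proteins of the extracellular matrix, most of them secreted and a few collagens anchored in the cell membrane, and their genes were followed here in C2C12 myotubes. C2C12 is a mouse myoblast line whose cells fuse into muscle fibre-like myotubes with many nuclei. The members were taken by gene name: every gene of the deposited matrix with a collagen chain symbol, 43 genes, and the 8 proteoglycan genes Dcn, Lum, Bgn, Fmod, Ogn, Aspn, Prelp and Omd. That gave 51 of 21187 genes. The myotubes had differentiated for 3 days. In 1 experiment they were left untreated or received LIF (leukemia inhibitory factor, a cytokine related to interleukin 6) at 10 ng/ml. In the other they were left untreated or were grown with medium conditioned by C26 cells, a mouse colon carcinoma line that causes wasting in mice, as 1 part in 3 of the volume. Each experiment had its own untreated cultures, and both were sampled at 4, 8 and 24 h. All groups share the C2C12 line, which is a single cell line in culture, and the conditioned medium is an undefined mixture. Each of the 12 arrays held pooled RNA from 3 wells, so each combination of arm, agent and time is 1 array and no difference at 1 time has a replicate check.

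Collagens are trimers of chains wound into a triple helix. Fibrillar collagens (types I, II, III, V, XI, XXIV and XXVII) form the cables of connective tissue, type IV forms the sheet of the basement membrane around each muscle fibre, and type VI forms beaded filaments next to that sheet. Small leucine-rich proteoglycans bind collagen fibrils, set their thickness and spacing, and carry sugar chains; decorin also binds TGF-beta. In muscle most of this matrix comes from fibroblasts, and cultured myoblasts and myotubes make some of it too.

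The arrays have 1 log2 value per gene. Array medians lay between 5.5 and 6 in the LIF experiment and between 6.14 and 6.74 in the conditioned medium experiment, with the lowest values in the 24 h arrays. Levels are therefore compared mainly between the treated and untreated array of 1 agent and time, or after subtracting the array median. In each experiment the untreated 4 and 8 h arrays are also compared as deposited. Their medians were 6.0 and 6.0 in the LIF experiment and 6.71 and 6.74 in the conditioned medium experiment. A gene was counted as above background in an array when it exceeded the level that 5% of 1286 olfactory and vomeronasal receptor genes exceed, between 4.5 and 5.14. Of the 51 members 45 lay above it in all arrays, and between 46 and 48 did so in a given array. Lum and Omd lay below it in all arrays, and Aspn did so in the LIF experiment. Of 10 myotube markers 10 lay above background in all arrays, among them Myh3, Ckm, Acta1 and Myog, so the labelled cell type had its defining transcripts. Of the fibroblast and unfused cell markers 7 of 10 did so, including Pax7 and Myf5, and Fap and Tcf21 lay below background throughout. Of 4 endothelial markers Pecam1 and Kdr lay below background in every array, while Cdh5 lay above it in 8 of the 12 arrays and Tek in 6. Of 6 macrophage and leukocyte markers 5 lay below background in every array, and Cd68 lay above it in all 12.

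Most of the 51 genes differed little with either agent. Past 1.5-fold, at 4 h 0 members were higher or lower with LIF, where 0.316% and 0.222% of all genes were, and 0 with conditioned medium, where 0.349% and 0.085% were. At 8 h 0 members passed with LIF (0.302% of all genes higher and 0.189% lower), and with conditioned medium 0 were higher (0.76% of all genes) and 2, Aspn and Col8a1, were lower (0.378%). At 24 h Dcn was higher (0.75% of all genes) and Col8a1 lower (0.486%) with LIF, while Dcn and Col3a1 were higher (1.2%) and Col8a1 and Fmod lower (1.29%) with conditioned medium. Between the untreated 8 h and 4 h arrays 0 members differed that much in either experiment, where 0.75% and 0.448% of all genes were higher and lower in the LIF experiment and 0.17% and 0.0802% in the conditioned medium experiment. By this fold, Col8a1 and Aspn had passed with conditioned medium at 8 h, and Aspn no longer did at 24 h. For a later change there was a test: limma compared the treatment change at 24 h with that at 4 h, with the agents as the repeats, and called 3 of 51 members, 2 higher and 1 lower, against 0.401% of all genes (0.118% higher and 0.283% lower). The agents are not replicate cultures, so such a p rests on the likeness of the 2 agents' shifts and not on repeated cultures. The fit leaves 2 residual degrees of freedom. The LIF fold changes were deposited under 1 date for 4 and 8 h and a later date for 24 h. What these dates stand for is not stated, and for LIF they cannot be told apart from time in this test. All 3 calls were lost without a variance trend (adjusted p between 0.315 and 0.444) and after rounding all values to 1 decimal (0.634), settings under which 0 of all genes were called.

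**Figure D1:**
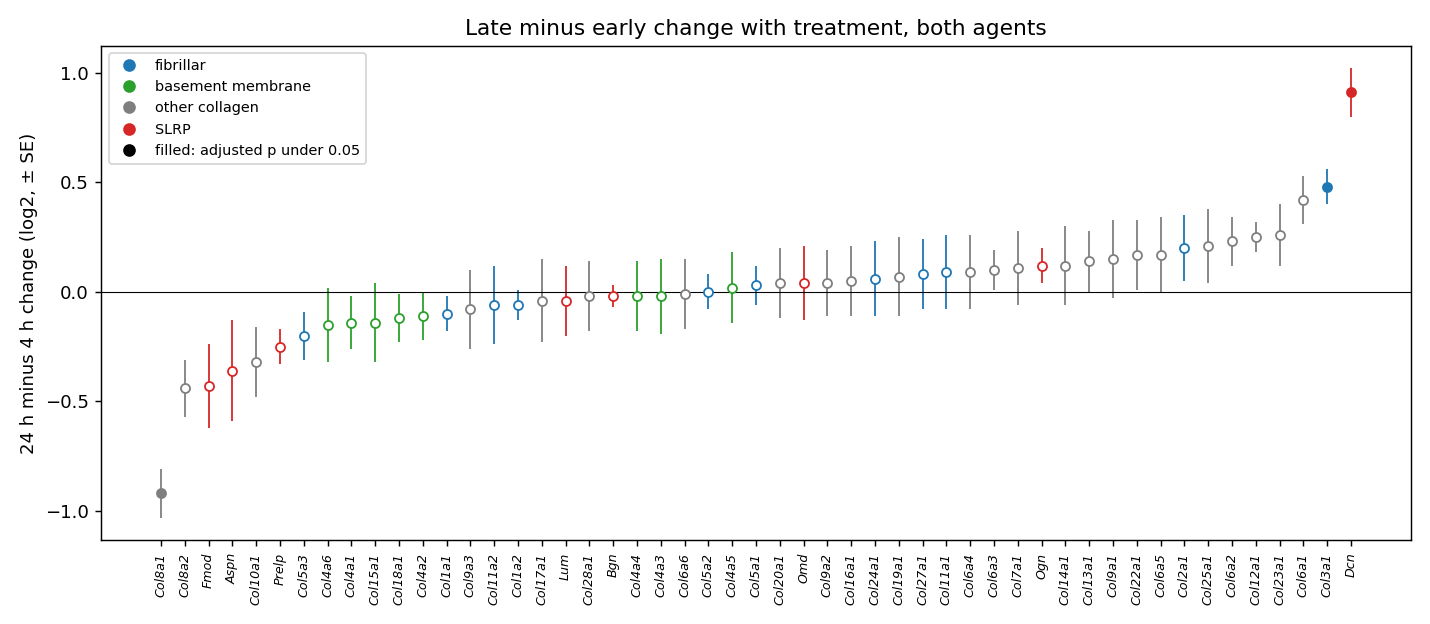
Change with treatment at 24 h minus the change at 4 h, on the log2 scale with its standard error, for the 51 genes in order, coloured by class (SLRP, small leucine-rich proteoglycan); filled points passed limma at an adjusted p of 0.05. Dcn (0.91) and Col3a1 (0.48) stand at the upper end, Col8a1 (-0.92) at the lower end, and most others lie within 0.25 of 0.

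Dcn encodes decorin, a proteoglycan that coats collagen fibrils. In the LIF experiment its log2 level was 7.5, 7.4 and 7.2 in the untreated arrays at 4, 8 and 24 h and 7.5, 7.4 and 8.2 in the treated arrays. In the conditioned medium experiment it was 9.48, 9.54 and 8.97 untreated and 9.64, 9.94 and 9.95 treated. Treated and untreated arrays were equal with LIF until 8 h and stood 2.0-fold apart at 24 h, whereas with conditioned medium the log2 difference was 0.16, 0.40 and 0.98. Relative to the array median, the untreated log2 level was 2.77, 2.80 and 2.83 at the 3 times in the conditioned medium experiment. In the LIF experiment it was 1.5, 1.4 and 1.7. On that scale the difference lay in the treated arrays, at 3.81 and 2.7 by 24 h. As deposited, the treated conditioned medium level was 9.94 and 9.95 at 8 and 24 h and the untreated level 9.54 and 8.97. Which arm moved thus depends on the scale and cannot be settled with 1 array per point. The 24 h minus 4 h change was 1.0 with LIF and 0.82 with conditioned medium, 0.91 ± 0.11 (SE) in the fit (limma adjusted p of 0.00751). By that estimate Dcn was the 13th highest of all genes.

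In these bulk samples, fewer cells of a type and less RNA per cell cannot be told apart. The summed linear signal of the 10 fibroblast and unfused cell markers ranged from 3447 to 5498 in untreated and from 3852 to 5664 in LIF-treated arrays, and from 8931 to 11590 in untreated and from 10810 to 12760 in conditioned medium arrays. At 24 h the sum was 3447 untreated and 3852 with LIF, and 8931 untreated and 10810 with conditioned medium, the direction of Dcn and Col3a1. The higher sum came from Ly6a: the other 9 markers, summed after seeing the data, stood at 2556 untreated and 2404 with LIF, and at 6546 and 6169 with conditioned medium. The median change of the 10 markers at 24 h was -0.1 with LIF and 0.06 with conditioned medium. By gene, Ly6a was higher at 24 h by 0.7 and 0.96 and Pdgfra by 0.5 and 0.41 with LIF and conditioned medium, while Pdgfrb differed by -0.5 and -0.23 and Cd34 by -0.4 and -0.16. Their part in the changes of the matrix genes was not tested.

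The other proteoglycans did not follow Dcn. Fmod, for fibromodulin, which takes part in fibril assembly, stood at 6.7, 6.6 and 6.1 untreated and 6.5, 6.3 and 5.8 with LIF, and at 6.69, 6.56 and 6.62 untreated and 6.64, 6.52 and 5.81 with conditioned medium. It was lower at all 6 pairings, most at 24 h with conditioned medium (log2 difference of -0.81), where the untreated array also stood higher over its median (0.48) than at 4 and 8 h (-0.02 and -0.18). The mean change was -0.27 ± 0.13 (SE) with LIF and -0.30 ± 0.13 with conditioned medium, and limma did not call it (adjusted p of 0.782 and 0.651). Prelp, whose product links basement membrane perlecan to collagen, was level with LIF at 4 and 8 h and lower by 0.2 at 24 h, and with conditioned medium differed by -0.08, -0.22 and -0.38 (mean -0.23 ± 0.06, limma adjusted p of 0.262). The difference between the agents for Prelp was -0.16 ± 0.09 (limma adjusted p of 0.967).

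Aspn, for asporin, a proteoglycan that binds collagen and TGF-beta, was above background in the conditioned medium experiment, at 6.20, 6.58 and 5.69 untreated and 6.29, 5.76 and 5.45 treated. It was 1.77-fold lower at 8 h, where its untreated array was 0.38 above the untreated 4 h array, and its mean change was -0.32 ± 0.15 (limma adjusted p of 0.71). Bgn, for biglycan, a close relative of decorin, did not differ with LIF at any time (12.4, 12.4 and 11.8 in both arms) and differed by between -0.04 and 0.02 with conditioned medium. Ogn, for osteoglycin, differed by between -0.2 and 0.0 with LIF and between -0.14 and 0.11 with conditioned medium. For Lum and Omd, below background throughout, differences of up to 0.37 in size have no firm reading.

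**Figure D2:**
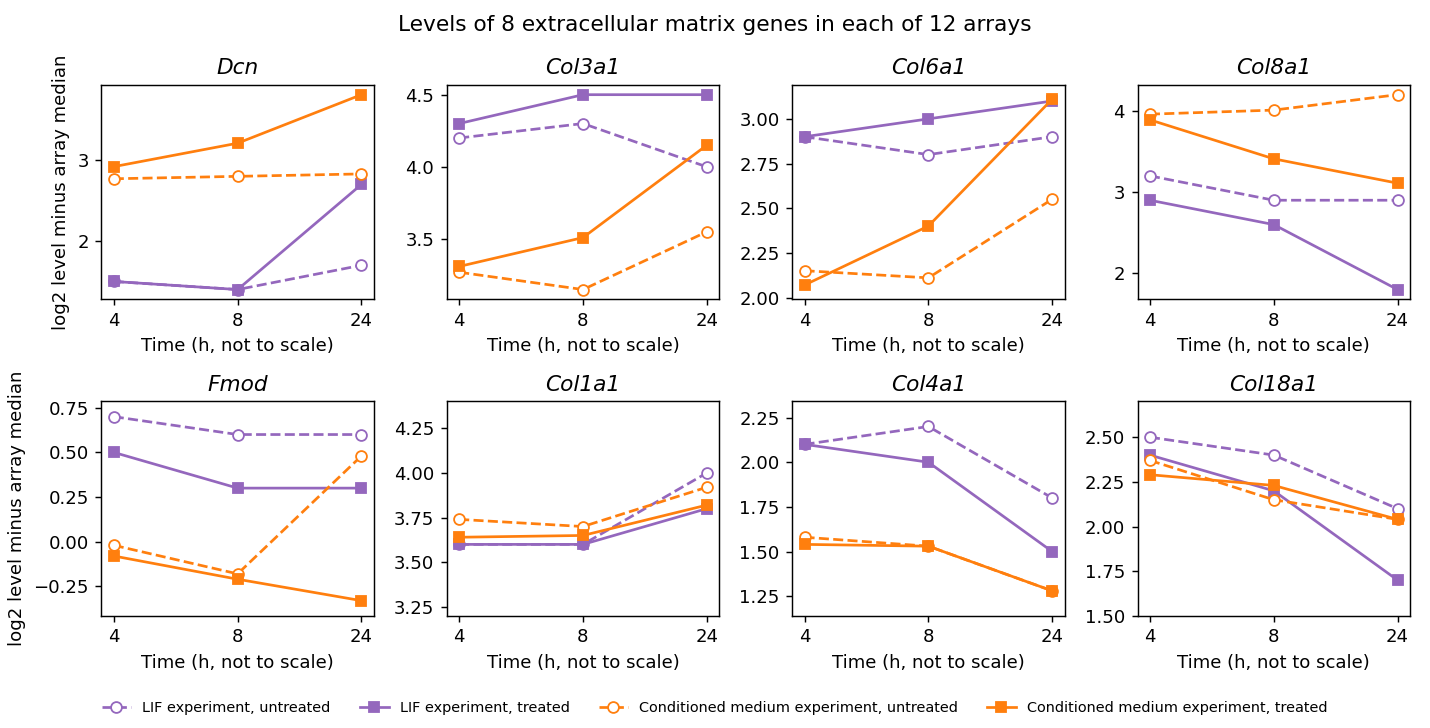
Log2 level minus the median of its array at 4, 8 and 24 h for 8 genes, with open circles for untreated and filled squares for treated arrays, 1 array per point; the vertical scales differ between panels. Treated arrays of Dcn, Col3a1 and Col6a1 end above and those of Col8a1 and Fmod below their untreated arrays at 24 h with both agents, while Col1a1 differs by at most 0.2.

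Among the 11 fibrillar collagen genes, Col3a1 stood out. It encodes the chain of type III collagen, found with type I in the connective tissue of muscle. Its level was 10.2, 10.3 and 9.5 untreated and 10.3, 10.5 and 10.0 with LIF, and 9.98, 9.89 and 9.69 untreated and 10.03, 10.24 and 10.29 with conditioned medium. The treated array was the higher at all 6 pairings, by 0.1, 0.2 and 0.5 with LIF and by 0.05, 0.35 and 0.60 with conditioned medium, which is 1.41-fold and 1.52-fold at 24 h. The 24 h minus 4 h change was 0.4 with LIF, 0.55 with conditioned medium and 0.48 ± 0.08 (SE) in the fit (limma adjusted p of 0.0269), and quantile normalization ended the call (0.0867). Averaged over the times, the change was 0.27 ± 0.10 with LIF and 0.33 ± 0.10 with conditioned medium, and limma called neither (adjusted p of 0.581 and 0.31).

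The chains of types I and V, which assemble with type III in the same fibrils, did not move with it. Col1a1 was at 9.6, 9.6 and 9.5 untreated and 9.6, 9.6 and 9.3 with LIF, and at 10.45, 10.44 and 10.06 untreated and 10.36, 10.38 and 9.96 with conditioned medium. Its mean change was -0.07 ± 0.05 and -0.08 ± 0.05 (limma adjusted p of 0.866 and 0.782). Col1a2, the partner chain of type I collagen, had mean changes of -0.03 ± 0.04 and -0.06 ± 0.04. Col5a1 and Col5a2, the chains of type V that start fibrils, had mean changes between -0.02 and 0.00, each with an SE of at most 0.05. Col5a2 is the neighbour of Col3a1 on chromosome 1 and differed by 0.1 and -0.05 at 24 h, where Col3a1 differed by 0.5 and 0.60. Col5a3, the third type V chain, was lower at all 6 pairings, by 0.3 and 0.35 at 24 h (mean -0.17 ± 0.07 with LIF and -0.20 ± 0.07 with conditioned medium, limma adjusted p of 0.681 and 0.47). The remaining fibrillar genes, Col2a1, Col11a1, Col11a2, Col24a1 and Col27a1, differed by between -0.2 and 0.22.

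Type VI collagen, the beaded filament of the muscle fibre surface, is built from the products of Col6a1, Col6a2 and Col6a3. Col6a1 was at 8.9, 8.8 and 8.4 untreated and 8.9, 9.0 and 8.6 with LIF, and at 8.86, 8.85 and 8.69 untreated and 8.79, 9.13 and 9.25 with conditioned medium. It was level or lower at 4 h and higher at 8 and 24 h with both agents, by up to 0.56. Its 24 h minus 4 h change of 0.42 ± 0.11 missed the test (limma adjusted p of 0.179). Col6a2, its neighbour on chromosome 10, was higher by 0.1, 0.2 and 0.3 with LIF and by 0.00, 0.32 and 0.26 with conditioned medium, with mean changes of 0.20 ± 0.07 and 0.19 ± 0.07 (limma adjusted p of 0.553 and 0.491). Col6a3 differed less, by between 0.0 and 0.15, and Col6a4, Col6a5 and Col6a6 by between -0.17 and 0.19; Col6a5 was above background in 2 of 12 arrays.

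Type VIII collagen, a short-chain network collagen of vessel walls and of the cornea, was lower. Col8a1 stood at 9.2, 8.9 and 8.4 untreated and 8.9, 8.6 and 7.3 with LIF, and at 10.67, 10.75 and 10.34 untreated and 10.61, 10.14 and 9.25 with conditioned medium. The treated array was the lower at all 6 pairings, 2.14-fold at 24 h with LIF and 2.13-fold with conditioned medium. The 24 h minus 4 h change was -0.8 and -1.03, and -0.92 ± 0.11 (SE) in the fit (limma adjusted p of 0.00788), the 17th lowest of all genes. Col8a2, the partner chain, differed by 0.0, -0.2 and -0.5 with LIF and by -0.06, -0.18 and -0.44 with conditioned medium, and its 24 h minus 4 h change of -0.44 ± 0.13 missed the test (limma adjusted p of 0.27). Col10a1, the network collagen of growth cartilage, was lower by 0.2 and 0.36 at 24 h from levels near background in the LIF experiment.

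Promoters are shown for Col3a1 and Col8a1, which passed the late test, and for Col6a1 and Col8a2, the collagens with the next largest late estimates in each direction, which did not pass. Promoter windows were taken from RefSeq (build GRCm38.p6), which held 41 of the 51 members and not Dcn. The 250 bases before the annotated start are printed 5′ to 3′ on the gene strand for Col3a1 (chr1:45311288-45311537 on the plus strand), Col6a1 (chr10:76726045-76726294 on the minus strand), Col8a1 (chr16:57754738-57754987 on the minus strand) and Col8a2 (chr4:126286544-126286793 on the plus strand), with matches to the searched motifs in capitals.
Col3a1: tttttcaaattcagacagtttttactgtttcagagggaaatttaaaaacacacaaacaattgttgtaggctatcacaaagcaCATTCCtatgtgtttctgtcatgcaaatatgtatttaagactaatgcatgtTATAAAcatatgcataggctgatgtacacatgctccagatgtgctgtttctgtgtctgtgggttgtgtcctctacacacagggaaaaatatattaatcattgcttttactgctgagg
Col6a1: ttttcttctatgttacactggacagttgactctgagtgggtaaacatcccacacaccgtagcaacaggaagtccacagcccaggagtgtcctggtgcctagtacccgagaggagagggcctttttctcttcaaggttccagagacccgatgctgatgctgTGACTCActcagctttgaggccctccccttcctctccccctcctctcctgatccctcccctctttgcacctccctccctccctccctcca
Col8a1: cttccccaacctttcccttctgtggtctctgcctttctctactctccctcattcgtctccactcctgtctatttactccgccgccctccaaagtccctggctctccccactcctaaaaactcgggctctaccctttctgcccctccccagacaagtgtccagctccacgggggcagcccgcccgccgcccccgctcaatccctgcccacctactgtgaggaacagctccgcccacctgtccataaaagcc
Col8a2: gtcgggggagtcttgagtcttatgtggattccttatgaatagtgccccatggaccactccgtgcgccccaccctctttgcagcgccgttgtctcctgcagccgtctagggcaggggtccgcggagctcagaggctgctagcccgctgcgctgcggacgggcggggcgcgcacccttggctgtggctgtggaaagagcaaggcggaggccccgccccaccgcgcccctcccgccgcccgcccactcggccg
The motifs, searched on both strands, were TTCNNNGAA (STAT), TGANTCA (AP-1), CATTCC (TEAD), CCAAT and TATAAA, and no 2 matches overlapped. They were found in 7.02%, 6.75%, 12.6%, 33.8% and 12.4% of 32851 RefSeq promoters over the same 250 bases. Col3a1 held CATTCC with 162 bases between it and the start and TATAAA with 111, and Col6a1 held TGACTCA, a form of the AP-1 motif, with 83. The windows of Col8a1 and Col8a2 held none of these letters. TTCNNNGAA was in 2 of the 44 promoters of the members, where a gene can have more than 1.

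At 24 h most basement membrane genes were slightly lower with LIF, while with conditioned medium their median was at 0.00, and limma called no member of the class. Col18a1, whose product holds endostatin, was at 8.5, 8.4 and 7.6 untreated and 8.4, 8.2 and 7.2 with LIF, and at 9.08, 8.89 and 8.18 untreated and 9.01, 8.96 and 8.18 with conditioned medium. Its mean change was -0.23 ± 0.06 with LIF (limma adjusted p of 0.409) and 0.00 ± 0.06 with conditioned medium, and the difference between the agents was 0.23 ± 0.09 (limma adjusted p of 0.967). Col4a1, a main type IV chain, was at 8.1, 8.2 and 7.3 untreated and 8.1, 8.0 and 7.0 with LIF, and differed by between -0.03 and 0.00 with conditioned medium. Col4a2, its partner, lies head to head with it on chromosome 8, and their 300-base windows share 78 bases. It differed by -0.1, -0.2 and -0.1 with LIF and by -0.05, 0.00 and -0.27 with conditioned medium. The mean LIF change was -0.17 ± 0.06 for Col4a1 and -0.13 ± 0.06 for Col4a2 (limma adjusted p of 0.606 and 0.755). Col4a3 to Col4a6, chains known from kidney, lung and eye, and Col15a1, a relative of Col18a1, differed by between -0.2 and 0.3 with LIF and between -0.14 and 0.16 with conditioned medium. Several were dim. In the untreated 24 h array of the LIF experiment Col4a3, Col4a4 and Col15a1 stood at 5.1 and Col4a6 at 4.5. The background level was 4.7 in that array and 4.5 in the LIF-treated one, and its part in these small changes was not tested.

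By class, the collagens showed small changes whose direction varied with time. With LIF the median change at 24 h was -0.1 for fibrillar, -0.1 for basement membrane and 0.0 for the 24 other collagens, where the median of all genes was 0.0 and the rounding step is 0.1. Of the 8 basement membrane genes 7 lay below 0, 0 above and 1 at 0, against 7 below and 2 above among 11 fibrillar genes, and 9085 below and 6474 above among all 21187 genes. Among the 12522 genes above background in all arrays, 4554 lay below and 4555 above. With conditioned medium the medians at 4 h were -0.09, -0.04 and -0.10 and at 24 h 0.11, 0.00 and 0.15, where the median of all genes was 0.0 at both times. Of the 43 collagens 37 lay below 0 at 4 h and 28 above 0 at 24 h with conditioned medium, while 10517 of 21187 genes lay below at 4 h and 9790 above at 24 h. Of the 40 collagens above background in all arrays 35 lay below 0 at 4 h and 26 above 0 at 24 h. Each cell type marker list also had a median below 0 at 4 h, between -0.15 (chondrocyte and tendon) and -0.02 (fibroblast and unfused cell). Several of those markers lay below background. The lists of collagen pathway genes given below did not all share the shift, with medians between -0.05 (basement membrane partners) and 0.03 (crosslinking). Beside the class medians, the untreated 8 h minus 4 h difference in that experiment had a median of 0.0 over all genes and -0.02 over the 51 members. Its median size with the sign left aside, which is not a like measure, was 0.07 over all genes. Among the other collagens, at 24 h with conditioned medium 8 of 9 FACIT genes, whose products sit on the surface of fibrils, lay above 0 (median 0.13), as did 4 of 4 transmembrane collagens (median 0.24) and 5 of 6 type VI genes (median 0.17). The fibril-associated gene Col12a1 was at 10.17 untreated and 10.30 treated there, and Col14a1 at 5.41 and 5.78. Several of these genes were dim: relative to the median of that untreated array Col14a1 and Col17a1 lay at -0.73 and Col19a1 at -1.17. The background level was 4.66 in that untreated array and 4.78 in the treated one, and its part in these small changes was not tested. All 3 network collagens had changes below 0 at 24 h with conditioned medium (median -0.44). The 8 proteoglycans had medians of -0.15 with LIF and -0.14 with conditioned medium at 24 h, with Dcn at 1.0 and 0.98 far from the rest.

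**Figure D3:**
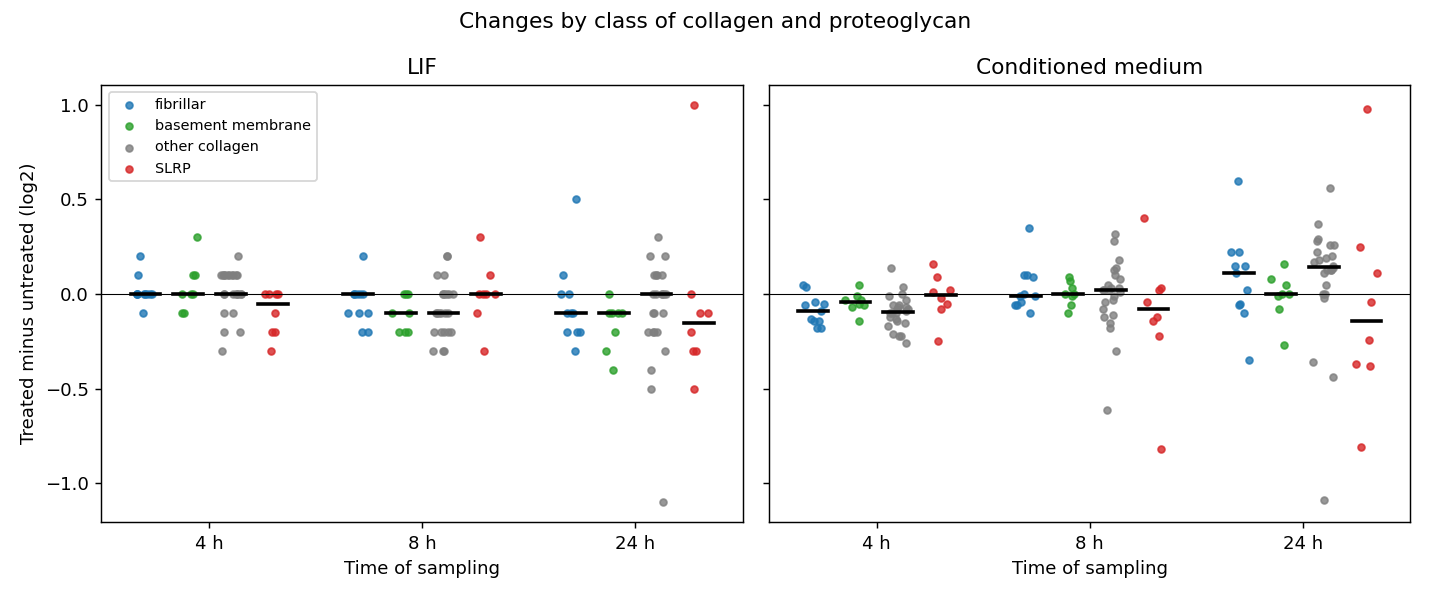
Treated minus untreated log2 difference of each gene at 4, 8 and 24 h with LIF and with conditioned medium, by class (SLRP, small leucine-rich proteoglycan), with black bars for the class medians. The medians stay between -0.15 and 0.15, and single genes (Dcn, Col8a1, Col3a1, Fmod, Aspn) carry the large changes.

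Treated as an average over the 3 times, neither agent's response was called in any member. Limma called 0 of 51 for LIF (0.0% of all genes), 0 of 51 for conditioned medium (0.217% of all genes; 0.212% higher and 0.00472% lower) and 0 of 51 for the difference between the agents (0.0% of all genes). At an unadjusted p under 0.05 there were 8 members for LIF, 8 for conditioned medium and 1 for the difference, that is 15.7%, 15.7% and 1.96% of the members, against 6.82%, 7.48% and 4.48% of all genes. For the late against early change it was 8 members (15.7%), against 7.44% of all genes. In this fit the 3 times serve as repeats, and a small p needs changes of like size at all of them.

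The agents' untreated arrays are separate, so their changes can be set against each other. Across the 51 genes the Pearson correlation of the LIF with the conditioned medium change was 0.08 at 4 h, 0.40 at 8 h and 0.74 at 24 h, and the Spearman correlation 0.01, 0.39 and 0.45. Over all genes the Pearson correlation was 0.01, 0.10 and 0.14. At 24 h 21 members had the same sign with both agents and 17 opposite signs. The 3 called genes were chosen by a test that takes the agents as repeats, so their likeness is not a separate result. Fmod at 24 h differed more with conditioned medium (-0.81) than with LIF (-0.3). Aspn at 8 h differed by -0.82 and -0.1, but it lay below background in the LIF arrays, so its LIF value has no firm reading. Averaged over the times, the difference between the agents was -0.03 ± 0.19 for Fmod and -0.09 ± 0.22 for Aspn (limma adjusted p of 0.991 and 0.975). Genes are not independent replicates, and the points share arrays, so the correlations are descriptions. Without Dcn and Col8a1, and over the 43 other members above background in all arrays, the Pearson correlation at 24 h was 0.54. Over all genes above background in all arrays it was 0.25. The difference between the agents, averaged over the times, was 0.18 ± 0.27 (SE) for Dcn, -0.02 ± 0.26 for Col8a1 and 0.07 ± 0.14 for Col3a1. None of these differences passed limma (adjusted p of 0.968, 0.995 and 0.972), and the standard errors leave room for sizable differences.

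**Figure D4:**
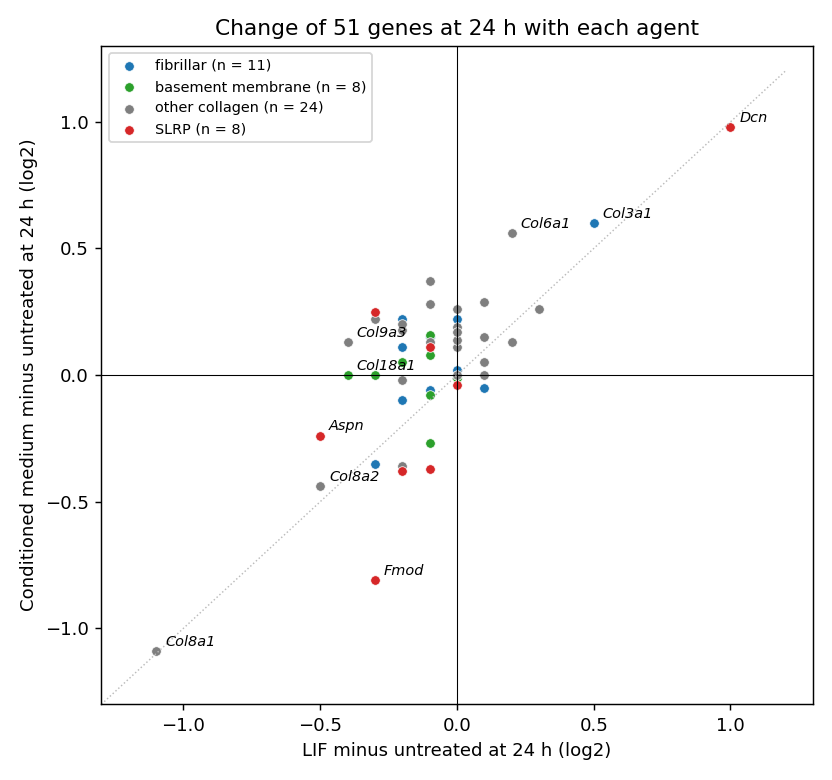
Log2 change at 24 h with LIF (horizontal) against conditioned medium (vertical), 1 point per gene, coloured by class, with a dotted line where both are equal. Dcn (1.0 and 0.98) and Col8a1 (-1.1 and -1.09) lie at the ends of that line, Col3a1 and Col6a1 in the upper right, and Fmod lower with conditioned medium (-0.81) than with LIF (-0.3).

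No gene that processes or crosslinks collagen and no collagen receptor gene passed limma, in lists of between 7 and 19 genes. Of 19 genes of hydroxylation and folding, among them the prolyl hydroxylase subunits and the collagen chaperone Serpinh1, 0 passed limma in any of the 4 comparisons (3, 2, 3 and 0 at an unadjusted p under 0.05 for LIF, conditioned medium, their difference and late against early). For this and the lists below, the shares of all genes in the same order were 6.82%, 7.48%, 4.48% and 7.44% at an unadjusted p under 0.05. The shares called by limma were 0.0%, 0.217%, 0.0% and 0.401%. With shares that small, 0 calls in a list of this size does not show that its genes were level. The lysyl hydroxylase gene Plod3 was higher by 0.2, 0.3 and 0.3 with LIF (mean 0.27 ± 0.05, limma adjusted p of 0.124). Of the 8 genes of propeptide cleavage 0 passed (1, 0, 0 and 2 at an unadjusted p under 0.05, in the same order); Pcolce2, an enhancer of that cleavage, differed by 0.1, 0.1 and -0.3 with LIF and by -0.04, -0.01 and -0.47 with conditioned medium (24 h minus 4 h of -0.42 ± 0.09, limma adjusted p of 0.0724). Of 7 crosslinking genes 0 passed (2, 1, 1 and 0 unadjusted). The transglutaminase gene Tgm2 was higher at all 6 pairings, by 0.4, 0.3 and 0.4 with LIF and 0.21, 0.53 and 0.47 with conditioned medium (means 0.37 ± 0.07 and 0.40 ± 0.07, limma adjusted p of 0.165 and 0.0701). The lysyl oxidase gene Lox differed by 0.1, 0.2 and 0.3 with LIF and by -0.05, -0.01 and -0.22 with conditioned medium, a difference between the agents of -0.29 ± 0.07 that missed the test (limma adjusted p of 0.884).

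Of 16 basement membrane partners 1 passed limma, in the late comparison, where 0.401% of all genes did. At an unadjusted p under 0.05 there were 1, 5, 2 and 2, against 6.82%, 7.48%, 4.48% and 7.44% of all genes. The gene that passed was Lamb3, for the beta 3 chain of laminin-332, which fell late. It was at 8.1, 7.8 and 7.5 untreated and 7.8, 7.6 and 6.7 with LIF, and at 9.50, 9.46 and 9.40 untreated and 9.47, 9.14 and 8.26 with conditioned medium. Its 24 h minus 4 h change was -0.80 ± 0.13 (limma adjusted p of 0.0269), beside -0.92 for Col8a1. The heparan sulphate proteoglycan gene Agrn was higher with conditioned medium at 8 and 24 h, by 0.53 and 0.44 (mean 0.35 ± 0.08, limma adjusted p of 0.18), and differed by between -0.1 and 0.1 with LIF. Of 8 collagen receptor genes 0 passed (1, 1, 0 and 1 unadjusted), with the integrin subunit genes Itga10 and Itga11 lower by 0.75 and 0.62 at 24 h with conditioned medium and by 0.2 and 0.1 with LIF. Of 16 genes that build dermatan and keratan sulphate chains 0 passed (4, 3, 1 and 0 unadjusted), and Chst11, a chondroitin sulphotransferase gene, was higher with conditioned medium by 0.28, 0.24 and 0.21 (mean 0.24 ± 0.07, limma adjusted p of 0.31).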

How the data were processed

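RNA of C2C12 myotubes was hybridised to Affymetrix mouse gene 1.0 ST arrays. Groups follow the sample titles. The deposited matrix holds log2 expression values, 1 per Entrez gene. Per the submitters' processing notes, the method was RMA. The version of RMA, the probe sets and the build were not stated in the labels or files used here. As the values show, the authors' log2 columns carry 1 decimal for LIF and 2 for conditioned medium. The authors also deposited signed fold changes, a score below 0 for a decrease, per the file headers; they match the matrix differences within rounding in 100% of genes and were used only in 1 alternative. Another 12 per-sample columns were left out. Symbols were updated through Entrez identifiers with RefSeq (20819 matched).

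Values were used as deposited. Under R 4.3.3, limma 3.58.1 was fitted with lmFit and eBayes, with a variance trend, to all genes and 12 arrays with each treated and untreated pair as a block, 1 treatment effect per agent and, for 24 h minus 4 h, 1 shift of the treatment effect common to both agents. Benjamini-Hochberg adjustment of the p-values ran over all 21187 genes. The fits were tested on simulated data. Python 3.11.15 made the counts. Values in every array were given for called members, for those with the highest and lowest changes above background, and for a list of main chains; not every such gene is named. Alternatives concerned the genes tested, variance prior, normalization, threshold, rounding, times and arrays. The members, classes, lists and tests were chosen with earlier results of these data known; motifs were chosen after the changes were seen. The number of arrays limits the precision.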

Additional observations from a re-analysis of the deposited data

Results flagged for a closer look

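The change with treatment differed between 24 h and 4 h, by the test of that difference in limma, for 3 members. The difference was 0.91 for Dcn (adjusted p of 0.00751), -0.92 for Col8a1 (adjusted p of 0.00788) and 0.48 for Col3a1 (adjusted p of 0.0269), in the same direction with both agents in each case. The test takes the agents as its repeats, so the like direction is not a separate result. No group holds more than 1 array, so no array could be set against others of its group.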

How the results depend on the processing

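The design has 1 array per group, so the only repeats are the times or the agents. Each treated and untreated pair is a block in every fit, and the labels give no replicate numbers for another block. For 24 h minus 4 h, 85 genes were called. The count was 136 with robust variances, 26 after quantile normalization, 138 after median centring, 165 at a threshold of 0.10, and 0 without a variance trend or after rounding to 1 decimal. The 3 member calls likewise became 0 under the last 2 settings, and quantile normalization ended that of Col3a1. For LIF the count over all genes of 0 became 8 without the dimmest 25% of genes, 12 with robust variances, 12 after quantile normalization and 28 at a threshold of 0.10. For conditioned medium 46 genes became 25 without the dimmest 50%, 25 with robust variances, 76 at a threshold of 0.10, 13 from the authors' deposited fold changes, and 0 without a trend, after rounding or in the 6 arrays of that agent alone. With 1 time left out it was between 0 and 1 (1 without 4 h, 0 without 8 h, 0 without 24 h). Under each of these settings 0 members were called for either agent. Fewer samples enter the fits without a time or without an agent; for the other settings the cause was not tested. At a ratio of 5 to 4 in place of 1.5-fold, 7 members passed at 24 h with LIF (5.22% of all genes) and 4 and 11 at 8 and 24 h with conditioned medium (4.62% and 11.7%). At 2-fold 0 and 1 did so at 8 and 24 h with conditioned medium (0.34% and 0.392%). With LIF at 24 h Dcn (1.0) and Col8a1 (-1.1) reached 2-fold, where 0.142% of all genes did. With each time left out, the median of the mean change lay between -0.10 and 0.00 for the fibrillar genes with LIF (0.00 without 24 h), between -0.15 and 0.00 for the proteoglycans with LIF (-0.15 without 8 h) and between -0.13 and -0.04 for the proteoglycans with conditioned medium (-0.04 without 8 h). The correlation at 24 h without Dcn and Col8a1, 0.54, was computed after seeing the data. Without 24 h the mean LIF change of Dcn went from 0.33 to 0.00 and that of Prelp from -0.07 to 0.00. The conditioned medium change of Col18a1, 0.00, became 0.04 without 4 h and -0.04 without 8 h. No recomputed value of a named member took the sign opposite to a value that was not 0.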

Other observations

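The untreated arrays of the experiments, 1 per time, can be set side by side only relative to the median gene. The untreated 4 h array of the conditioned medium experiment minus that of the LIF experiment had a median of 0.65 over all genes. Of the 51 members 42 lay below that median at 4 h, and 43 and 38 below the medians at 8 and 24 h. Over the 4 h median Dcn was higher by 1.33 and Col8a1 by 0.82, above 97.9% and 90.6% of all genes. At 8 h the values over the median of that time were 1.49 and 1.2, and at 24 h 1.15 and 1.32. Col8a2 and Col3a1 lay at the other end, at -1.05 and -0.87 at 4 h, -1.08 and -1.06 at 8 h, and -0.48 and -0.43 at 24 h, where 24.3% and 26.9% of all genes lay lower. The arrays of the experiments do not share a scale, and culture, array run and processing cannot be told apart here. The level of Dcn relative to the median gene differed between the experiments by more than it did between treated and untreated arrays at 24 h with either agent (1.0 and 0.98).

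Of 12 pairs of members with no other protein-coding gene between them, 7 had changes of the same sign at 24 h with LIF, 1 opposite and 4 a change of 0, and with conditioned medium 6, 4 and 2. The same count over neighbouring genes of the whole matrix was not made. The pairs of the same sign with LIF include Aspn with Omd and Omd with Ogn. Omd lay below background in all arrays and Aspn in the LIF arrays, so the signs of these pairs have no firm reading. Col3a1 and Col5a2 differed by 0.5 and 0.1 with LIF and by 0.60 and -0.05 with conditioned medium. Prelp and Fmod were both lower at 24 h (-0.2 and -0.3 with LIF, -0.38 and -0.81 with conditioned medium) and Col6a2 and Col6a1 both higher (0.3 and 0.2, then 0.26 and 0.56). Dcn lies next to Lum, which was below background in all arrays.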
